A study of Homo sapiens with 4 samples.

Results

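The interleukin-6 (IL6) family of cytokines and its STAT3 axis were followed by 10 genes in OVSAYO cells, a human ovarian clear cell carcinoma (CCC) line. The genes were the ligands IL6, IL11 and LIF, the receptor chains IL6R, IL6ST, LIFR and OSMR, the kinase JAK2, the transcription factor STAT3 and the inhibitor SOCS3. Members were chosen by name: every array probe whose RefSeq transcript maps to one of these symbols was taken. This gave 17 probes on 44 spots, of 41000 probes on 43376 spots in all, and 17721 genes on the array carried a symbol. All 17 member probes were well above background on all 4 arrays, and none of their spots was saturated or carried an outlier flag.

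The study asked which genes respond to CoCl2, a hypoxia mimic, through the transcription factor Sp1. OVSAYO cells received either a non-specific control siRNA (NS-si) or a pool of siRNAs against Sp1 (Sp1-si) and were grown for 40 h, then for 4 h with 0.5 mM CoCl2 (NS-si → CoCl2, Sp1-si → CoCl2) or without it. All 4 conditions thus share transfection, cell line and labelling, and RNA of each was hybridised to 1 one-colour array on 1 slide. Because each condition is a single array of 1 cell line and 1 siRNA pool, no test between conditions was possible, and every error below is a technical spot SD, not a spread between cultures.

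IL6 family cytokines use receptor chains such as IL6R for IL6, LIFR for LIF and OSMR for oncostatin M, together with the shared chain gp130, the product of IL6ST. Kinases of the JAK family, JAK2 among them, then phosphorylate STAT3, which enters the nucleus and switches on target genes. SOCS3 is one of these targets and shuts the pathway down again by blocking gp130 and the kinases. In epithelial tumours the pathway is known for its ties to inflammation, growth and survival.

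Stretches upstream of 4 members, taken from RefSeq (GRCh38.p14), are shown because Sp1 binds GC-rich boxes and because these genes differed in pattern: IL6 was lower with CoCl2, IL11 and OSMR were higher with it in NS-si cells, and IL6ST was higher with Sp1 siRNA. Each is the 250 bases before a start site, 5′ to 3′ in the direction of the gene. Capitals mark any match to GGGCGG (GC box), ACGTG or GCGTG (core of the hypoxia response element), TTCNNNGAA (STAT), TGACTCA (AP-1) or GGNNTTTCC (a shortened NFkB pattern), each on either strand and with overlapping matches counted.
IL6, chr7:22726950-22727199, plus strand: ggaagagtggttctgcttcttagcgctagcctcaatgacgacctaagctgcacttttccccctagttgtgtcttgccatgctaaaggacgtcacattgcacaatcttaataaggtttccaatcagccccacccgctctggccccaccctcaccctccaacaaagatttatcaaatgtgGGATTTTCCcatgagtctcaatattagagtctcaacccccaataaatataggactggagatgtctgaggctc
IL11, chr19:55370464-55370713, minus strand: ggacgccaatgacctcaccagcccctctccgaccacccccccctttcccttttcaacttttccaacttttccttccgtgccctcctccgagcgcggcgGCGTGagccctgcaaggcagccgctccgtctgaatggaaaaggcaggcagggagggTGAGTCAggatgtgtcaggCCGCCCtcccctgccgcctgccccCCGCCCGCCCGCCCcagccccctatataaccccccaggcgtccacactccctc
IL6ST, chr5:55994964-55995213, minus strand: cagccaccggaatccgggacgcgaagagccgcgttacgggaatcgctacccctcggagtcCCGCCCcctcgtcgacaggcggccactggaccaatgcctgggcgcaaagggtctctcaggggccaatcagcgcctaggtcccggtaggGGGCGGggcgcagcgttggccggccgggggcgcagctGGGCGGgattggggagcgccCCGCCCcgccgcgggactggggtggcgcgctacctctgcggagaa
OSMR, chr5:38845762-38846011, plus strand: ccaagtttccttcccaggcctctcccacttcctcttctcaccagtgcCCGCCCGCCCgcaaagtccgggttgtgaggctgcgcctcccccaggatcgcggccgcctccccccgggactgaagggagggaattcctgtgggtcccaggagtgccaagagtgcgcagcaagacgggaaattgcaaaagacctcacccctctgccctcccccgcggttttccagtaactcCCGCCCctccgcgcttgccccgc

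The IL6 stretch held no GC box and 1 match to the NFkB pattern, GGATTTTCC, from 72 to 64 bases before the start. IL11 held 4 GC boxes, 3 of them overlapping, 1 hypoxia core and 1 AP-1 match, TGAGTCA, from 96 to 90 bases before the start. IL6ST held 4 GC boxes and OSMR 3. The table had promoters for 9 of the 10 genes, 15 promoters in all, and LIF was not among them. A GC box was found in 6 of the 15, and in 42.6% of all 35116 promoters of this length. The hypoxia core was found in 9 of the 15 (43.2% of all), the STAT pattern in 2, both of LIFR (6.57% of all), AP-1 in 1 (4.20% of all) and the NFkB pattern in 1 (5.48% of all). The 9 promoters with a hypoxia core belong to 5 genes, and overlapping stretches of JAK2 share 1 of the matches. No pattern matched in the IL6R promoter, and neither SOCS3 promoter held a GC box. These are matches of letters only.

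The siRNA check held on both SP1 probes. Probe A_23_P366312 gave signals of 553 and 429 with the control siRNA, without and with CoCl2, and of 39.2 and 38.7 with the Sp1 siRNA, so SP1 was 13.6-fold lower without CoCl2 and 14.6-fold lower with it. On A_23_P53397 SP1 was 15.6-fold and 19.7-fold lower. All 6 clear cell and epithelial markers reported here (NAPSA, PAX8, KRT7, KRT8, KRT18, EPCAM) were well above background on every array. NAPSA, which marks clear cell tumours, moved with the siRNA: its signal was 5131 and 3835 in the NS-si arrays and 984 and 965 in the Sp1-si arrays. Of the markers of other cells, PTPRC (leukocytes), COL3A1 (fibroblasts), PECAM1 and CDH5 (endothelium) were above background on no array, while CD3E, CD14, DCN, LUM and VWF were on all 4. Of these LUM moved with the siRNA as well, with signals of 766 and 558 in the NS-si arrays and 350 and 408 in the Sp1-si arrays. The part of these shifts in the results below was not tested.

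Signals below are Agilent's background-subtracted processed signals before scaling, in the order NS-si, Sp1-si, NS-si → CoCl2, Sp1-si → CoCl2. Ratios are differences of log2 signals after each array was set to its 75th percentile, and each is given with its spot SD. A probe was called raised or lowered at a log2 ratio of at least 1, which is 2-fold. The 4 contrasts share arrays, so they are not independent of each other. Signals of different probes depend on probe sequence and are compared within a probe only.

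Among the ligands, IL6, the inflammatory cytokine that names the family, was the one that fell under CoCl2. Its probe (A_23_P71037, 10 spots) gave mean signals of 695, 2247, 268 and 834. The array of Sp1-si cells was the highest and that of NS-si → CoCl2 the lowest, and the 10 spots ranged from 2040 to 2413 on the former and from 256 to 290 on the latter, with no overlap. IL6 was 2.21-fold lower with CoCl2 in NS-si cells (log2 ratio -1.15, spot SD 0.030) and 3.16-fold lower in Sp1-si cells (-1.66, spot SD 0.038). Sp1-si cells had 3.36-fold more IL6 signal than NS-si cells without CoCl2 (1.75, spot SD 0.037) and 2.36-fold more with it (1.24, spot SD 0.025). IL6 in Sp1-si → CoCl2 cells and in untreated NS-si cells was 0.090 apart on the log2 scale. That step exceeded 2 spot SDs of the difference taken spot by spot (spot SD 0.030). The SD over the 10 spots of each array was larger, 0.063 and 0.065. The step also rests on the scaling between arrays, which a spot SD does not measure.

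LIF, leukemia inhibitory factor, and IL11, a cytokine that also signals through gp130, went the other way under CoCl2. The brighter LIF probe (A_24_P122137, 1 spot) gave signals of 6855, 5976, 15621 and 12106. Both CoCl2 arrays were above both arrays without CoCl2. LIF was 2.66-fold higher with CoCl2 in NS-si cells (log2 ratio 1.41, spot SD 0.029) and 1.73-fold higher in Sp1-si cells (0.79, spot SD 0.026). The dimmer LIF probe (A_24_P233488) gave signals of 41.3, 35.3, 73.7 and 48.1, with ratios of 1.06 in NS-si cells (spot SD 0.071) and 0.22 in Sp1-si cells (spot SD 0.075). On both probes NS-si → CoCl2 was the highest array and Sp1-si the lowest. Without CoCl2 the siRNA moved LIF little, by -0.14 and -0.17. With CoCl2, Sp1-si cells had less LIF than NS-si cells, at -0.77 (spot SD 0.023) on the brighter probe and -1.01 (spot SD 0.081) on the dimmer one.

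IL11 (A_23_P67169, 1 spot) had the same order at a signal near the lower end of the array, 17.4, 12.8, 33.3 and 21.7, where the lowest probe called above background ranged from 6.72 to 10.2 over the arrays. NS-si → CoCl2 was again the highest array and Sp1-si the lowest. Its ratio was 1.16 with CoCl2 in NS-si cells (spot SD 0.31) and 0.53 in Sp1-si cells (spot SD 0.29). Under CoCl2 the siRNA ratio was -1.01 (spot SD 0.36), and without it -0.38 (spot SD 0.36). The steps from Sp1-si to NS-si and from NS-si to Sp1-si → CoCl2 were both within 2 spot SDs. The -1.01 values of IL11 and of the dimmer LIF probe sat just past the 2-fold line, and both lay inside it under each of 6 other ways of scaling or background correction.

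**Figure D1:**
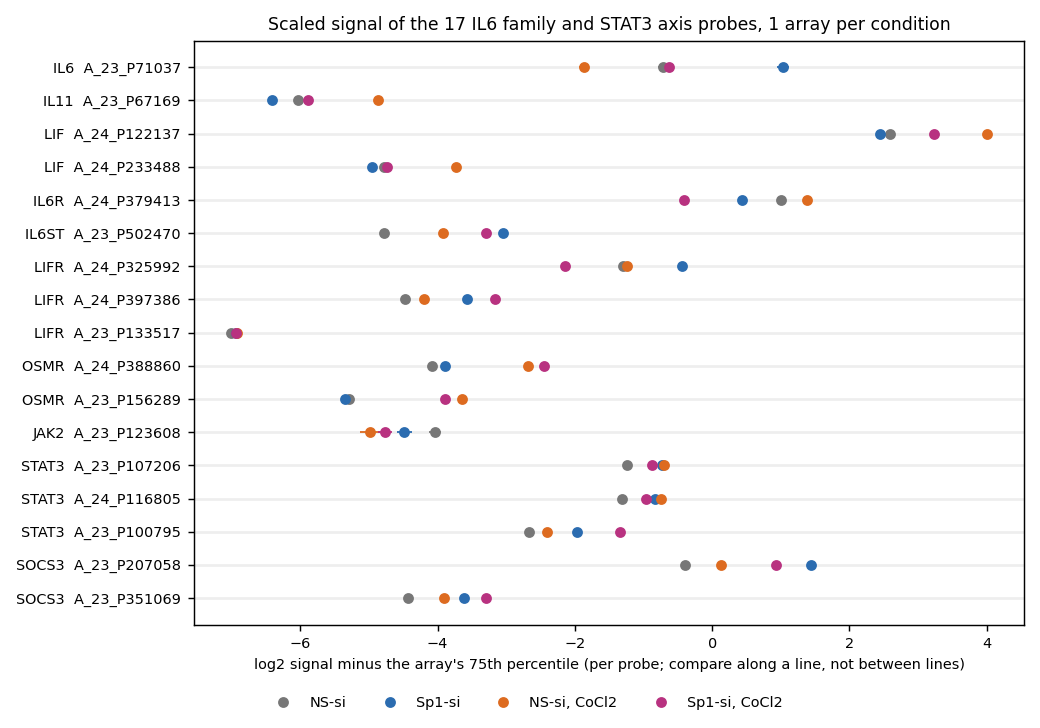
Scaled log2 signal (horizontal axis, log2 signal minus the array's 75th percentile) of the 17 member probes, 1 line per probe and 1 point per condition; whiskers are the SD over 10 spots where a probe has them. IL6 is lowest in NS-si → CoCl2, while LIF and IL11 are highest there, and both OSMR probes split by CoCl2.

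The receptor chains did not share 1 pattern. OSMR, the receptor chain for oncostatin M and a known STAT3 target, rose with CoCl2 in both siRNA backgrounds. Probe A_24_P388860 gave signals of 67.8, 74.4, 153 and 236, with CoCl2 ratios of 1.40 in NS-si cells (spot SD 0.071) and 1.44 in Sp1-si cells (spot SD 0.075). Probe A_23_P156289 gave 29.2, 27.0, 78.1 and 87.0, with ratios of 1.64 and 1.46. On both probes both CoCl2 arrays lay above both others. Within an siRNA background the CoCl2 signal was 2.64-fold to 3.13-fold higher. With normexp background correction the 4 ratios fell to between 0.56 and 0.95, inside the 2-fold line, with the same sign. The siRNA ratios of OSMR ran from -0.24 to 0.23. Among the member probes raised with CoCl2 in NS-si cells, A_23_P156289 had the highest ratio, while A_24_P388860 (1.40) was just below LIF A_24_P122137 (1.41). In Sp1-si cells the OSMR probes were the only member probes raised.

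IL6ST, which encodes the shared chain gp130, was higher in both arrays with Sp1 siRNA. Its probe (A_23_P502470) gave signals of 41.5, 133, 64.7 and 131. The siRNA ratio was 1.73 without CoCl2 (3.32-fold, spot SD 0.071) and 0.62 with it (spot SD 0.081). CoCl2 moved it by 0.87 in NS-si cells and by -0.24 in Sp1-si cells. IL6R, the chain that binds IL6 itself, was lower in both arrays with Sp1 siRNA. Its probe (A_24_P379413) gave 2280, 1485, 2536 and 973, and Sp1-si → CoCl2 was the lowest array. The siRNA ratio was -0.56 without CoCl2 (spot SD 0.029) and -1.78 with it, a 3.43-fold lower signal (spot SD 0.033). The CoCl2 ratio of IL6R was 0.38 in NS-si cells but -0.84 after Sp1 silencing.

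LIFR, the LIF receptor chain, gave a different picture on each of its 3 probes. The brightest (A_24_P325992) gave signals of 464, 810, 414 and 291, so that Sp1-si was the highest array and Sp1-si → CoCl2 the lowest. CoCl2 lowered it 3.26-fold in Sp1-si cells (log2 ratio -1.70, spot SD 0.037) and left it at 0.06 in NS-si cells (spot SD 0.041). The next probe (A_24_P397386) gave 51.4, 92.1, 53.2 and 143, highest in Sp1-si → CoCl2, with a CoCl2 ratio of 0.41 in Sp1-si cells. The dimmest (A_23_P133517) lay close to background, at 8.90, 8.97 and 8.05 on the first 3 arrays, and its scaled log2 signal stayed between -7.00 and -6.92 on all 4, well within its spot SD of 0.34. Without CoCl2 the upper probes had like siRNA ratios, 0.86 and 0.90, but with CoCl2 they were -0.91 and 1.03. No single direction for LIFR under CoCl2 can be given from these probes.

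**Figure D2:**
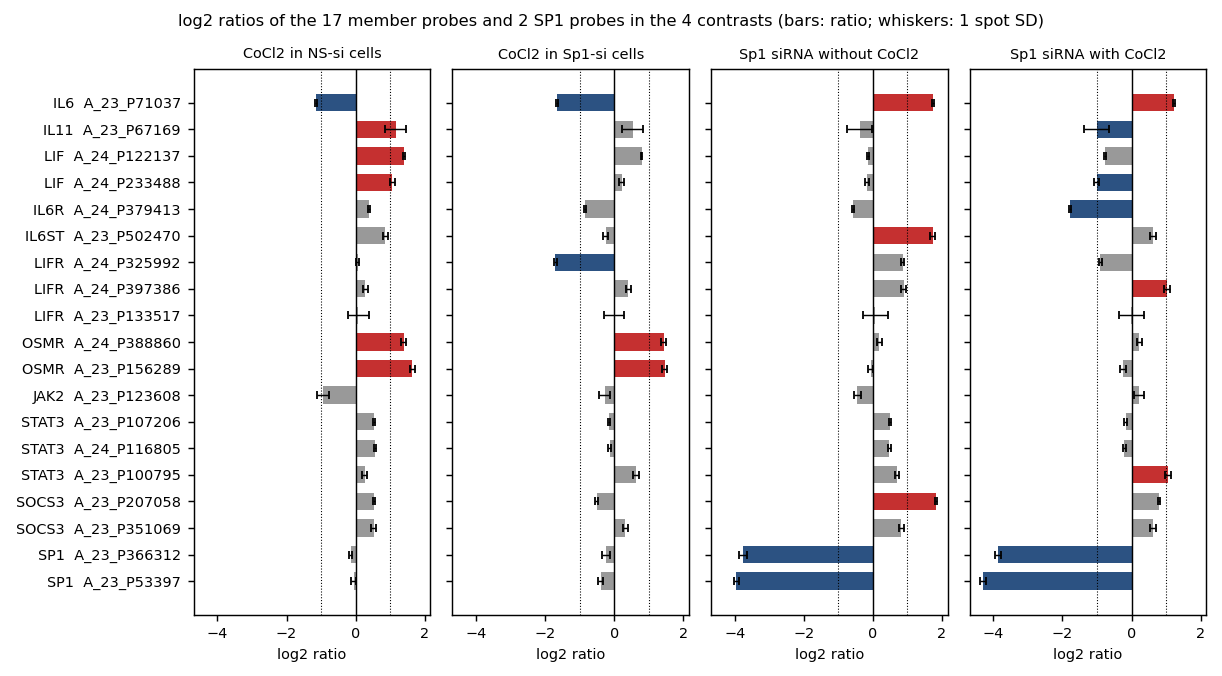
log2 ratios (horizontal axes) of the 17 member probes and of the 2 SP1 probes in the 4 contrasts; bars are ratios, whiskers 1 spot SD, dotted lines a log2 ratio of 1 either way, red and blue bars are past it. LIF, IL11 and OSMR are the raised members with CoCl2 in NS-si cells and IL6 the lowered one; IL6, IL6ST and SOCS3 are raised by Sp1 siRNA without CoCl2.

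JAK2, a receptor-bound kinase, was highest in untreated NS-si cells. Its 10-spot probe (A_23_P123608) gave mean signals of 69.5, 49.1, 30.9 and 47.3. The ratio with CoCl2 was -0.95 in NS-si cells (spot SD 0.17) and -0.28 in Sp1-si cells (spot SD 0.16), neither past the 2-fold line. Over 9 other settings the ratio in NS-si cells ran from -1.17, past the line without scaling, to -0.30. The siRNA ratio was -0.45 without CoCl2 (spot SD 0.096) and 0.22 with it (spot SD 0.14), which turned to -0.12 with normexp background correction. JAK2 was the member probe with the largest positive difference between the 2 CoCl2 ratios, 0.66 (spot SD 0.20).

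STAT3 itself moved less than 2-fold on its brighter probes. The 10-spot probe (A_23_P107206) gave mean signals of 485, 664, 602 and 702, and A_24_P116805 gave 462, 620, 583 and 663. On both, untreated NS-si was the lowest array. CoCl2 ratios in NS-si cells were 0.54 and 0.56 and in Sp1-si cells -0.15 and -0.13, and siRNA ratios without CoCl2 were 0.51 and 0.48. Without scaling the ratios in Sp1-si cells turned to 0.08 and 0.10. The third probe (A_23_P100795) gave 179, 280, 184 and 507, and was raised by Sp1 siRNA with CoCl2 (log2 ratio 1.06, spot SD 0.081), where the others stood at -0.17 and -0.21 (0.22 and 0.19 without scaling).

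SOCS3, the feedback inhibitor, was higher with Sp1 siRNA on both probes. The brighter probe (A_23_P207058) gave signals of 870, 2973, 1069 and 2442. Both Sp1-si arrays were above both NS-si arrays. Its siRNA ratio was 1.83 without CoCl2 (3.55-fold, spot SD 0.029) and 0.79 with it (spot SD 0.033). CoCl2 moved it by 0.52 in NS-si cells and by -0.51 in Sp1-si cells. The dimmer probe (A_23_P351069) gave 52.9, 89.8, 65.0 and 132, with siRNA ratios of 0.82 and 0.62 and CoCl2 ratios of 0.52 and 0.33. The probes thus shared the siRNA direction and the CoCl2 direction in NS-si cells, but not that in Sp1-si cells.

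**Figure D3:**
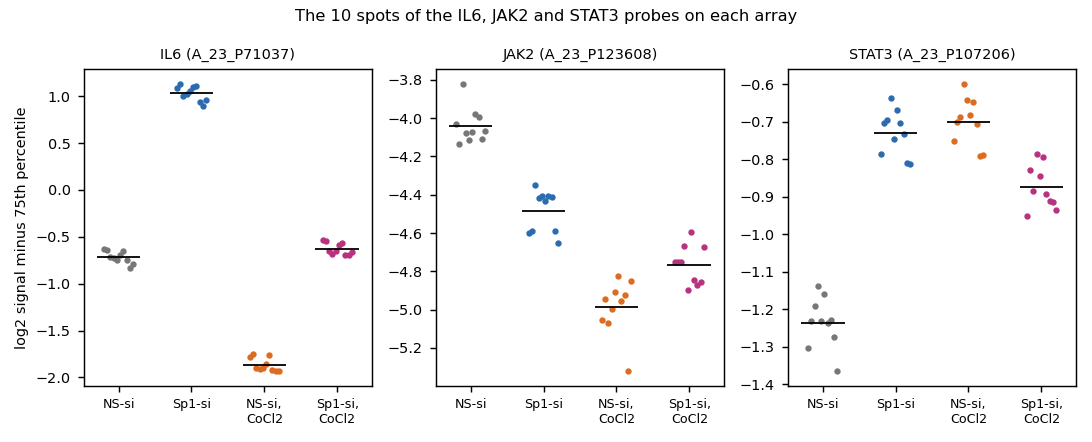
The 10 spots of the IL6, JAK2 and STAT3 (A_23_P107206) probes on each array, as log2 signal minus the array's 75th percentile (vertical axes, a separate scale in each panel); points are spots, lines their means. The IL6 spots of NS-si and Sp1-si → CoCl2 lie close together between those of the other conditions, and the STAT3 spots of untreated NS-si lie below those of the other 3 arrays.

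Counted over the 17 probes, CoCl2 in NS-si cells raised 5 (IL11, both LIF and both OSMR probes) beside 4.54% of all probes measured, and lowered 1 (IL6) beside 4.34%. In Sp1-si cells CoCl2 raised 2 (both OSMR) beside 3.68% and lowered 2 (IL6 and the brightest LIFR probe) beside 6.22%. Without CoCl2, Sp1 siRNA raised 3 (IL6, IL6ST and the brighter SOCS3 probe) beside 5.51% and lowered none beside 5.86%. With CoCl2 it raised 3 (IL6, LIFR A_24_P397386 and STAT3 A_23_P100795) beside 6.29% and lowered 3 (IL11, IL6R and the dimmer LIF probe) beside 9.7%. The median log2 ratio of the member probes was 0.52 with CoCl2 in NS-si cells, where that of all probes was 0.021, and 0.00035 in Sp1-si cells, where that of all probes was -0.034. For Sp1 siRNA it was 0.48 without CoCl2 and -0.013 with it, against -0.012 and -0.082 over all probes. With 17 probes of 10 genes, each such share moves by several points with 1 probe, and nothing particular to the family is read from them.

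Set side by side, 4 probes had a log2 CoCl2 ratio that was lower by 1 or more after Sp1 silencing than in the control cells: LIFR A_24_P325992 (difference -1.77, spot SD 0.052), IL6R (-1.22, spot SD 0.043), IL6ST (-1.11, spot SD 0.11) and the brighter SOCS3 probe (-1.03, spot SD 0.043). Over all probes 4.9% had such a difference. No member probe had a difference of 1 or more in the other direction, where 1.04% of all probes lay. The difference was -0.51 for IL6 (spot SD 0.038), -0.62 and -0.84 for the LIF probes, -0.63 for IL11 (spot SD 0.48) and 0.04 and -0.19 for the OSMR probes. The other probes of 2 genes named above did not share their size. For LIFR they stood at 0.13 (A_24_P397386, spot SD 0.11) and -0.08 (A_23_P133517, spot SD 0.48), and for SOCS3 at -0.20 (spot SD 0.11). The median over the member probes was -0.62, and that over all probes was -0.018. The Sp1-si → CoCl2 array enters every such difference, and its 75th percentile signal was 1287 where those of the other arrays were 977 to 1143; without scaling, 1 probe (LIFR) was left at -1 or below and 1 (JAK2) was at 1 or above.

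**Figure D4:**
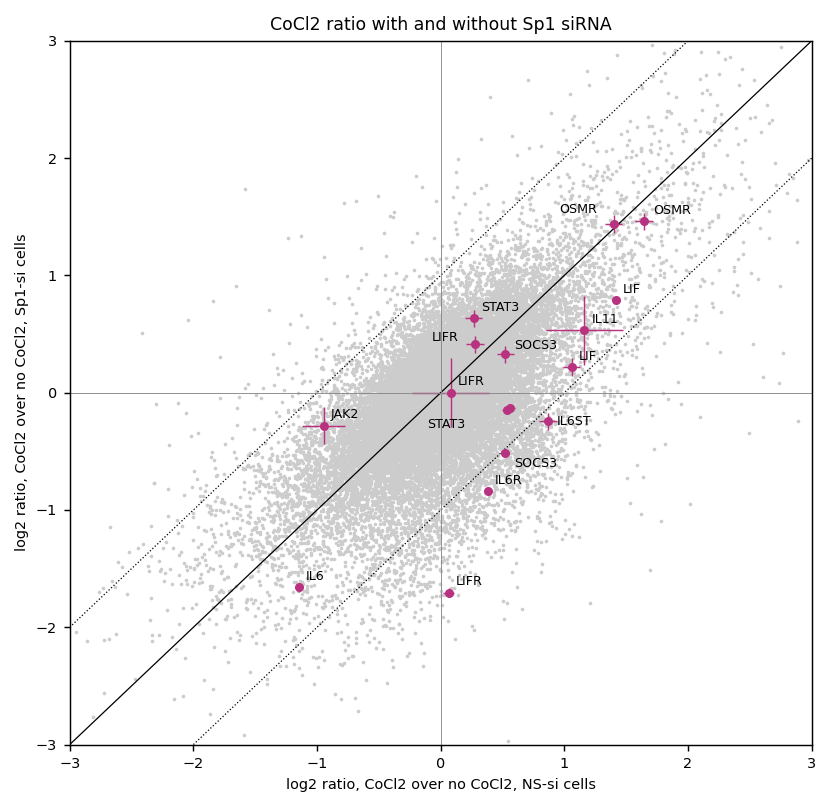
log2 ratio with CoCl2 in NS-si cells (horizontal axis) against that in Sp1-si cells (vertical axis) for the 30234 probes above background on all arrays (grey, those within 3 either way drawn) and the 17 member probes (purple, whiskers 1 spot SD; the overlapping pair of STAT3 points carries 1 label). The solid line marks equal ratios and the dotted lines a difference of 1; LIFR, IL6R, IL6ST and SOCS3 have a point below the lower dotted line, and OSMR lies near the solid one.

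The other genes of the pathway were counted by 1 probe per gene, the brightest, from 5 lists. Over all genes counted in this way, CoCl2 raised 4.22% and lowered 3.54% with the control siRNA, and raised 3.66% and lowered 4% after Sp1 silencing. Sp1 siRNA raised 6.22% and lowered 6.17% without CoCl2, and raised 7.15% and lowered 8.07% with it. Of the 7 other ligands, CoCl2 in NS-si cells raised 1 of 6 measured. This was OSM, oncostatin M, the ligand of OSMR, with signals of 143, 132, 356 and 230. Its CoCl2 ratio was 1.54 in NS-si cells (spot SD 0.071) but 0.57 after Sp1 silencing, and its siRNA ratio with CoCl2 was -1.03, so that its highest array was NS-si → CoCl2, as for LIF and IL11. Sp1 siRNA without CoCl2 raised 2 of 7 ligands, both just past the line and neither without scaling, and lowered 1. CLCF1, a ligand that signals through gp130 and LIFR, had signals of 1613, 3178, 1669 and 3900 and siRNA ratios of 1.03 and 0.83. IL31 was above background on the Sp1-si array alone, at 14.4. Its ratio there is a bound of 1.01 (2.02-fold) against the lowest signal above background in NS-si cells. With a spot SD of 0.36 at such low signal, it cannot be told from a ratio inside the 2-fold line. EBI3, a subunit of IL27 and IL35, was lowered, with signals of 1059, 177, 881 and 185 and ratios of -2.52 and -2.65, while its dimmer probe had -1.16 and -0.88.

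Of the other receptor chains reported here, IL27RA and IL31RA were measured and neither was past 2-fold in any of the 4 contrasts. CNTFR, the chain that binds CNTF, was above background on no array. Of 9 other kinases and STATs none was past 2-fold with CoCl2 (2 were lowered in NS-si cells without scaling), and STAT4 was the one lowered by Sp1 siRNA, at -1.88 without CoCl2 and -1.13 with it; the latter lay inside the line without scaling or with normexp.

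Of 15 inhibitors and phosphatases measured, CoCl2 moved none past 2-fold in NS-si cells. After Sp1 silencing it raised SOCS2 and lowered SOCS1. SOCS1, a JAK inhibitor, gave signals of 517, 3006, 330 and 1247, so that Sp1-si was the highest array and NS-si → CoCl2 the lowest on this probe. Its siRNA ratio was 2.59 without CoCl2 (spot SD 0.037) and 1.52 with it, and its CoCl2 ratio in Sp1-si cells was -1.50; the second SOCS1 probe had 1.87, 0.18 and -1.26. In NS-si cells the CoCl2 ratio was -0.42 on the first probe and 0.42 on the second. SOCS2, an inhibitor best known from growth hormone signalling, gave 423, 453, 232 and 1247, with a CoCl2 ratio of -0.64 in NS-si cells but 1.23 after Sp1 silencing. With CoCl2, Sp1 siRNA raised 4 of the 15: SOCS2 (2.03), SOCS1 (1.52), SOCS5 (1.22) and PIAS3, an inhibitor of STAT3 (1.04). It lowered none there. The second probes of SOCS5 (0.97) and PIAS3 (0.96) lay just inside the 2-fold line, and that of SOCS2 (2.71, above background on 3 arrays) lay past it.

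Of 21 known STAT3 targets measured with CoCl2, which include OSMR, 6 were raised in NS-si cells, 7 in Sp1-si cells and none was lowered (1 in NS-si cells with measured values in place of bounds). The list holds early-response genes that many other pathways also switch on. PIM1, a survival kinase, had signals of 138, 414, 848 and 1719 and CoCl2 ratios of 2.85 (spot SD 0.041) and 1.83 (spot SD 0.037). JUNB had ratios of 1.65 and 1.76, FOS 1.62 and 2.63, and CEBPB 1.51 and 2.11 (1.08 and 0.63 on its second probe). JUNB and FOS are subunits of AP-1, and CEBPB is a factor of acute phase genes. The list's median ratio was 0.25 with the control siRNA and -0.027 with the Sp1 siRNA.

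Sp1 siRNA without CoCl2 raised 6 of 22 targets and lowered 1. IRF1, a factor of interferon responses, had signals of 257, 1471, 186 and 944 and siRNA ratios of 2.57 without and 1.95 with CoCl2. SAA1, an acute phase protein, had ratios of 1.95 and 1.79, PIM1 1.64 and 0.62, and HP, haptoglobin, 1.24 and 0.56. The gene lowered was BIRC5, which encodes survivin and is also a cell cycle gene, at -2.35 and -2.74. With CoCl2 3 of 21 were raised (IRF1, SAA1 and FOS), which became 8 without scaling and 5 with median scaling, and BIRC5 was again lowered. The acute phase genes FGG, FGB, CRP and LBP were above background on no array.

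**Figure D5:**
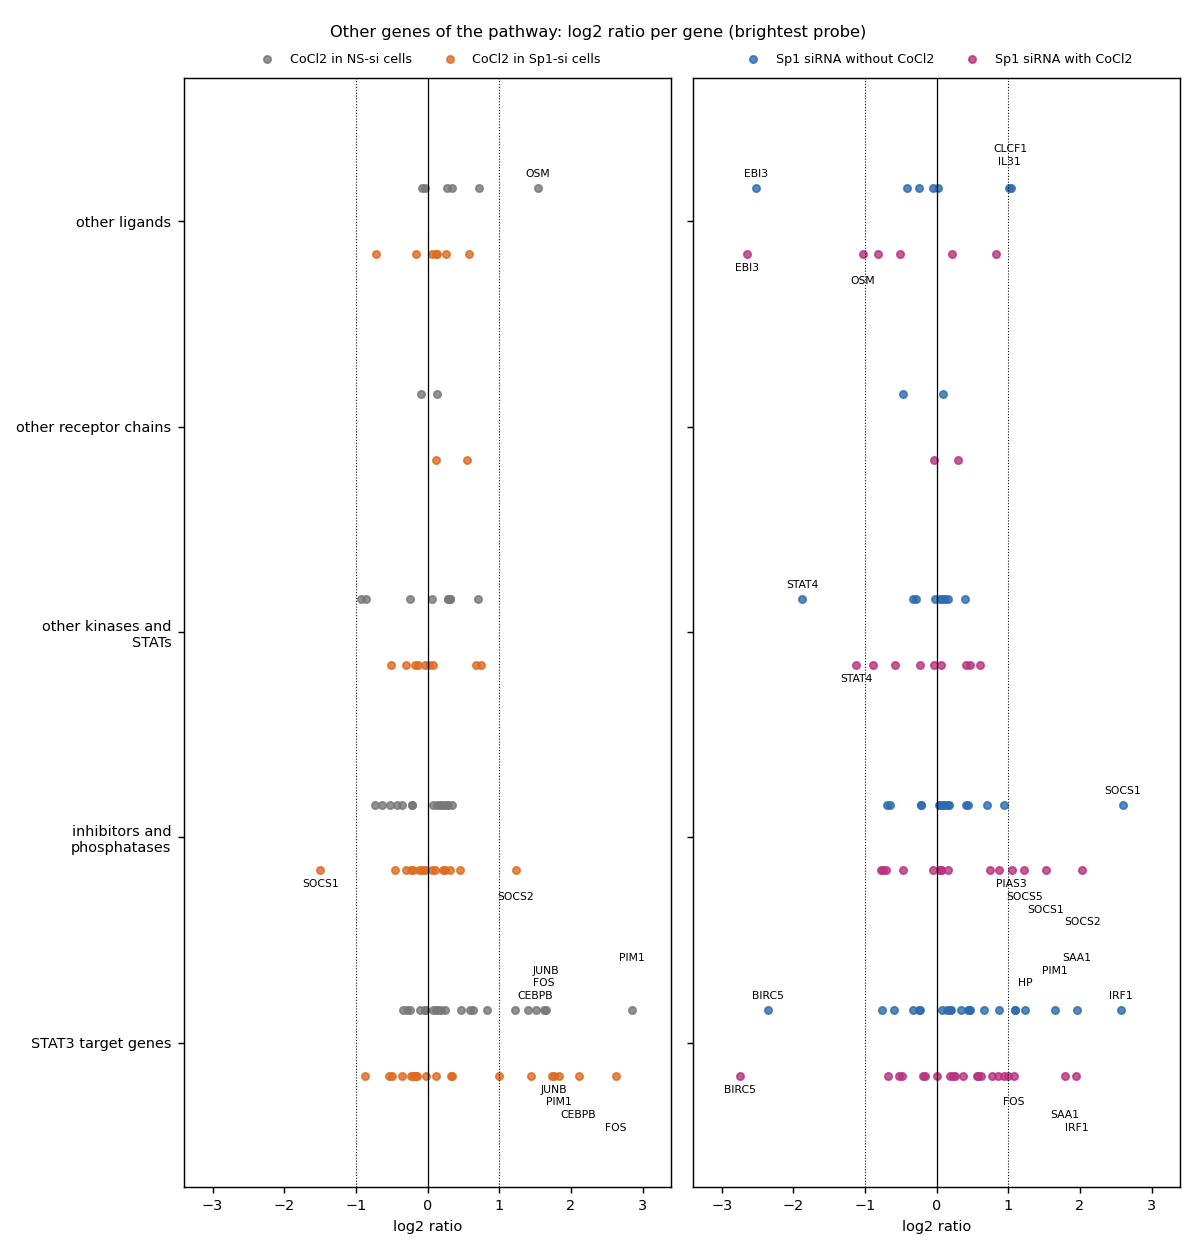
log2 ratio (horizontal axes) of each measured gene of the 5 pathway lists (rows, 1 point per gene and contrast, brightest probe), with CoCl2 on the left and Sp1 siRNA on the right; dotted lines mark a log2 ratio of 1, and up to 4 genes past it are named per direction. With CoCl2 most of the named genes are STAT3 targets, and SOCS1, IRF1 and SAA1 are to the right with Sp1 siRNA.

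Profiles over the 4 arrays were also compared with those of 14282 genes above background throughout, by Euclidean distance of centred log2 values, and with 4 points this is a description only. The brightest probe stood for each gene. Nearest to IL6 was BCL2L15, a BCL2 family gene (distance 0.089), followed by OSGIN2 (0.32) and NOSTRIN (0.38). BCL2L15 had CoCl2 ratios of -1.13 and -1.75 and siRNA ratios of 1.86 and 1.24. LIF lay nearest to SUN2 (0.021), RETREG1 and TRIO, and IL11 to NGLY1, COL7A1 and COL11A2 (0.12 to 0.13). The IL11 distances are smaller than the spot SDs of its ratios in the 4 contrasts (0.29 to 0.36), so the choice of these genes is within spot error. IL6R lay nearest to CNOT6L (0.081), KIRREL1 and SLC26A1. IL6ST lay nearest to STC1, the hormone stanniocalcin 1 (0.11), then JAML and ZIC2, and SOCS3 to ZNF503 (0.11), ZIC2 and FOXN3. The brightest LIFR probe (A_24_P325992), with which the others do not run together, lay nearest to MTF1, the metal-responsive transcription factor (0.12), then BLTP1 and REST, and OSMR to ZNF222 (0.10), RNMT and MYORG. The brightest probes of JAK2 and STAT3 spanned less than 1 on the log2 scale and were not matched.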

How the data were processed

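Total RNA of each of the 4 conditions was labelled with Cy3 and hybridised to 1 Agilent whole genome array. The deposited intensity values come from Agilent Feature Extraction 10.5.1.1 (array annotation on hg18), which subtracted background; no replicates were pooled or repeated. A deposited table of normalized values, whose method is not stated, equals the processed intensity times 1 constant per array, from 1.25 to 1.58; the column medians are 197 to 220, and it was used as an alternative.

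Control and outlier spots were left out, log2 intensity was set to each array's 75th percentile and averaged over a probe's spots. A probe was above background if at least 50% of its spots were, and 1 dim side made a ratio a bound. The dim side was set to the higher of its own signal and the lowest signal above background on that array. A bound that pointed the wrong way was left out. The 264 probes with 10 spots gave the spot SD; a probe with 1 spot received the median SD of the 10-spot probes of like signal (from 0.029 to 0.31 with CoCl2 in NS-si cells). Symbols came from RefSeq accessions: 28463 of 29877 spots matched, on 26222 probes. On simulated arrays 200 of 200 planted changes were recovered among 41000 probes. The planted changes were well past the 2-fold line, in brighter probes and with little noise. This checks the code and says nothing on calls near the line or at low signal. Python 3.11.15, pandas 2.3.3, R 4.3.3 and limma 3.58.1 were used. Named genes were all member probes, SP1, at most 4 list genes per direction past 2-fold by size, and the 3 nearest profiles per member that spanned 1. The members and lists were chosen with earlier results of these data known. Growth after transfection is 40 h in the labels; the study's text differs on this time. The number of arrays limits the precision. Some genes of the marker and pathway lists are not reported here.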

Additional observations from a re-analysis of the deposited data

Results flagged for a closer look

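5 member probes moved in opposite directions with CoCl2 with the control siRNA and with the Sp1 siRNA, each by more than 2 spot SDs. The 2 STAT3 probes among them are of 1 gene. By sign alone 6 of the 17 did, beside 30.2% of the 30234 probes above background on all arrays, so the count by sign is near that of the whole array. The share of all probes that pass the rule of 2 spot SDs was not taken, so the 5 have no such share beside them. The difference itself was not tested, since each condition is 1 array. The difference of log2 ratios, Sp1-si minus NS-si, was -1.22 for IL6R (0.38 in NS-si, -0.84 in Sp1-si), -1.11 for IL6ST (0.87 and -0.24) and -1.03 for SOCS3 A_23_P207058 (0.52 and -0.51). It was -0.68 for STAT3 A_23_P107206 (0.54 and -0.15) and -0.69 for STAT3 A_24_P116805 (0.56 and -0.13). The other SOCS3 probe (0.52 and 0.33) and the third STAT3 probe (0.27 and 0.63) were above 0 in both. Without scaling of the arrays the Sp1-si ratios of the 2 flagged STAT3 probes turned to 0.08 and 0.10. Those of IL6R (-0.61) and SOCS3 A_23_P207058 (-0.28) stayed below 0, while that of IL6ST (-0.017) lay within its spot SD of 0.075.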

How the results depend on the processing

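No called log2 ratio of a member probe changed sign under any of 9 other settings of scaling, background or spot handling (207 values of 23 called results), but 31 fell inside the 2-fold line, 13 of them with normexp on median signals. Of the 23, 9 kept their call in all 9 settings: IL6 in every contrast but CoCl2 in NS-si cells, LIF A_24_P122137 with CoCl2 in NS-si cells, IL6R for Sp1 siRNA with CoCl2, IL6ST and SOCS3 A_23_P207058 for Sp1 siRNA without CoCl2, and LIFR A_24_P325992 for CoCl2 in Sp1-si cells and for the difference of CoCl2 ratios. The planned normexp on mean signals could not be run without that column, and median signals were chosen in its place after seeing the data. Without scaling, the counts were 3 raised and 2 lowered with CoCl2 in NS-si cells, 6 raised and 1 lowered by Sp1 siRNA with CoCl2, and 1 smaller and 1 larger CoCl2 ratio in Sp1-si cells; the median of all probes then moved to -0.21 with CoCl2 in NS-si cells, 0.20 in Sp1-si cells and 0.32 for Sp1 siRNA with CoCl2. Sp1 siRNA with CoCl2 lowered 1 probe (IL6R) under median, quantile or above-background 75th percentile scaling and in the deposited value table, where CoCl2 in NS-si cells lowered 2. With normexp, CoCl2 raised 1 and lowered 0 in NS-si cells and raised 0 in Sp1-si cells, Sp1 siRNA with CoCl2 raised 1 and lowered 1, and 2 CoCl2 ratios were smaller. At 1.5-fold the counts were 2 lowered with CoCl2 in NS-si cells, 4 raised in Sp1-si cells, 7 raised by Sp1 siRNA without CoCl2, 6 raised and 5 lowered with it, and 9 smaller and 1 larger. At 3-fold they were 1 raised and 0 lowered with CoCl2 in NS-si cells, 0 raised in Sp1-si cells, 0 raised and 1 lowered by Sp1 siRNA with CoCl2, and 1 smaller. Where a setting changed a count the cause was not tested. Keeping outlier spots, requiring signal on both arrays or using measured values for bounds changed no count of member probes. These settings could not change one, because no member spot carried an outlier flag and all 17 member probes were above background on all 4 arrays. The stability of the member calls thus rests on the other 6 of the 9 settings. Of the pathway lists, the ligands lowered by Sp1 siRNA with CoCl2 went from 2 to 1 under 5 of the 9 settings. No paired analysis was possible because each condition has 1 array. Signals near background, as for IL11 and LIFR A_23_P133517, set the widest spot SDs.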
